A study of Saccharomyces cerevisiae with 9 samples.

Results

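The genes described are 10 genes for the enzymes that carry the mitochondrial tricarboxylic acid (TCA) cycle from isocitrate to oxaloacetate in budding yeast. They were chosen by gene symbol, and all 10 were found among the 5189 genes with a symbol on both array platforms. They are IDH1 (YNL037C), IDH2 (YOR136W), KGD1 (YIL125W), KGD2 (YDR148C), LSC1 (YOR142W), LSC2 (YGR244C), SDH1 (YKL148C), SDH2 (YLL041C), FUM1 (YPL262W) and MDH1 (YKL085W). Cultures of the laboratory strain S288C had been grown at 30 °C in YPD, a rich medium with glucose, to an absorbance of 1.0. In every recovering group a 400 ml aliquot was held at -80 °C for 1 week without cryoprotectant, thawed for 25 min at 30 °C, and harvested in 100 ml portions once 15, 30 or 60 min had passed since complete thawing. The comparison sample on every array was 200 ml of culture that was never frozen. Each time point had 3 arrays, described by the series as independent biological samples.

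The TCA cycle oxidises acetyl units in the mitochondrial matrix and passes the electrons to the respiratory chain, while its intermediates feed amino acid synthesis. Isocitrate dehydrogenase, built from IDH1 and IDH2, makes 2-oxoglutarate, which the KGD complex turns into succinyl-CoA. Succinyl-CoA ligase (LSC1, LSC2), succinate dehydrogenase (SDH1, SDH2), fumarase (FUM1) and malate dehydrogenase (MDH1) complete the path to oxaloacetate. In budding yeast growing on glucose, genes of respiration are held down by glucose repression. The Hap2/3/4/5 complex activates many of them, and the Rtg proteins maintain the genes of the early steps when respiration is weak.

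Values are log2 ratios of recovering over unfrozen cells, so 0 means no difference and 1 a doubling. The direction was taken from the labels, which put the recovering sample in the Cy5 channel, and is not stated in the tables. With the opposite division every sign would turn. Replicate 1 of each time point was on 1 platform and replicates 2 and 3 on another. Between 2603 and 5087 genes had a value on an array, and the SD over genes ranged from 0.444 to 1.02. Of the 90 possible values of the 10 genes, 79 were present. IDH1, IDH2, LSC1 and LSC2 had a value on all 9 arrays, SDH2, FUM1 and MDH1 on 8, KGD2 on 7, and KGD1 and SDH1 on 6. Each gene had 1 spot per platform, and the number of arrays limits the precision of each mean.

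Transcripts of both isocitrate dehydrogenase subunits were above the level before freezing on all 9 arrays. On every array, among those of the 10 genes with a value (5 to 10 per array), IDH1 (5 arrays) or IDH2 (4 arrays) was highest. At 60 min 6 of the 8 genes that could be tested rose, beside 15.6% of all genes tested. They were IDH1 (5.51-fold), IDH2 (4.84-fold), MDH1, SDH2, KGD2 and LSC1, and the calls of LSC1 and SDH2 ended when 1 replicate was left out. In these bulk cultures a change in how many cells hold a transcript and a change in its level per cell cannot be told apart. LSC2, the other gene of succinyl-CoA ligase, and FUM1 were tested at 60 min and did not pass. KGD1 and SDH1, partners of KGD2 and SDH2, had 2 values each at 60 min and were not tested.

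IDH1, the regulatory subunit of isocitrate dehydrogenase, was at 1.10, 1.34 and 0.73 on the 3 arrays at 15 min. At 30 min it was at 1.42, 1.74 and 1.20, and at 60 min at 2.76, 3.35 and 1.28. The 30 and 60 min values overlap through replicate 3, which lay at about the level of 30 min, while replicates 1 and 2 were far above it.

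IDH2, the catalytic subunit, was at 0.58, 1.23 and 0.75 at 15 min and at 0.82, 1.90 and 1.39 at 30 min. At 60 min it stood at 2.86, 2.85 and 1.12. Replicate 3 was again the lowest at 60 min, and its IDH2 value lay inside the range seen at 30 min.

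**Figure D1:**
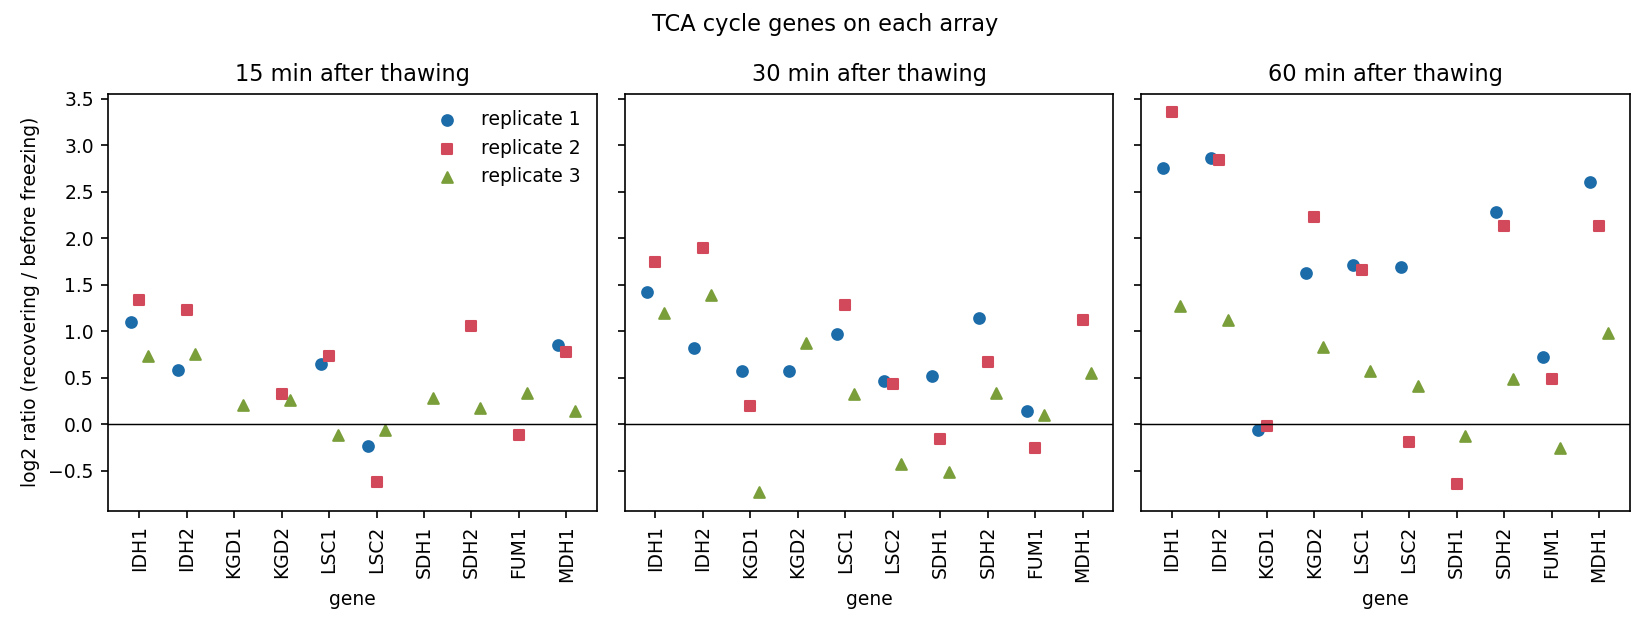
Each point is the log2 ratio (recovering over before freezing) of 1 gene on 1 array, in panels for 15, 30 and 60 min, with a marker for each replicate. IDH1 and IDH2 lie above 0 on all arrays, and at 60 min replicate 3 lies below replicates 1 and 2 for 7 of the 8 genes with all values.

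KGD1 and KGD2, the dehydrogenase and the succinyltransferase of the oxoglutarate dehydrogenase complex, did not move alike. KGD2 was at 0.32 and 0.26 at 15 min (replicates 2 and 3), at 0.57 and 0.88 at 30 min (replicates 1 and 3), and at 1.63, 2.23 and 0.83 at 60 min. KGD1 was at 0.21 at 15 min (replicate 3), at 0.58, 0.20 and -0.72 at 30 min, and at -0.06 and -0.02 at 60 min (replicates 1 and 2). KGD2 was above 0 on each of its 7 arrays, whereas KGD1 was above 0 on 3 and below 0 on 3.

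LSC1, the alpha subunit of succinyl-CoA ligase, was at 0.65, 0.74 and -0.12 at 15 min, at 0.97, 1.29 and 0.33 at 30 min, and at 1.71, 1.66 and 0.57 at 60 min. Its partner LSC2, the beta subunit, was at -0.23, -0.61 and -0.06 at 15 min, at 0.47, 0.44 and -0.43 at 30 min, and at 1.69, -0.19 and 0.41 at 60 min. LSC1 was above 0 on 8 of 9 arrays and LSC2 on 4. The single high value of LSC2 at 60 min came from replicate 1, the only array of that time on the first platform, and platform and replicate number cannot be told apart there.

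SDH2, the iron-sulfur subunit of succinate dehydrogenase, was at 1.06 and 0.18 at 15 min (replicates 2 and 3), at 1.14, 0.68 and 0.34 at 30 min, and at 2.28, 2.14 and 0.49 at 60 min. SDH1, the flavoprotein subunit, was at 0.28 at 15 min (replicate 3), at 0.52, -0.16 and -0.51 at 30 min, and at -0.64 and -0.12 at 60 min (replicates 2 and 3). SDH2 stayed above 0 on its 8 arrays and SDH1 was below 0 on 4 of 6. SDH1 has a paralog in the yeast genome, YJL045W, and how far it adds to the SDH1 spot is not known here.

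FUM1, whose product works in both the matrix and the cytosol, stayed within 1 log2 unit of 0 on all 8 arrays. It was at -0.11 and 0.34 at 15 min (replicates 2 and 3), at 0.14, -0.25 and 0.10 at 30 min, and at 0.73, 0.49 and -0.25 at 60 min. MDH1, the mitochondrial malate dehydrogenase, was at 0.85, 0.78 and 0.15 at 15 min, at 1.12 and 0.55 at 30 min (replicates 2 and 3), and at 2.61, 2.13 and 0.98 at 60 min. All 8 values of MDH1 were above 0, and its 60 min range overlapped that of 30 min through replicate 3.

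The 3 time points were then each tested against 0 in limma, a linear model fitted over all genes, restricted at each time point to genes measured on all 3 of its arrays. A gene passed at a Benjamini-Hochberg adjusted p under 0.05 over all genes tested. All 9 arrays entered the fit, so each SE and interval pools the spread of the 3 time points. At 60 min 8 of the 10 genes could be tested, and 6 were higher and 0 lower. Of all 2952 genes tested at that time 15.6% were higher and 17.5% lower, or 33.2% in either direction. IDH1 was at 2.46 ± 0.32 (log2 mean ± SE, n = 3, adjusted p = 3.27e-06), rank 10 from the top. IDH2 was at 2.28 ± 0.32 (adjusted p = 1.01e-05), rank 17. MDH1 stood at 1.91 ± 0.31, or 3.75-fold (adjusted p = 5.28e-05). SDH2 was 3.11-fold higher (1.64 ± 0.32, adjusted p = 0.000469) and KGD2 2.95-fold higher (1.56 ± 0.30, adjusted p = 0.000336). LSC1 was 2.48-fold higher (1.31 ± 0.30, adjusted p = 0.00163). Over their own arrays all 6 genes spread most at 60 min, which the pooled SE does not show. The SD of IDH1 was 1.07 at 60 min, against 0.30 and 0.27 at 15 and 30 min. That of LSC1 was 0.64, against 0.47 and 0.49.

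LSC2 (0.64 ± 0.31, 95% interval -0.00348 to 1.28, adjusted p = 0.117) and FUM1 (0.32 ± 0.28, interval -0.26 to 0.90, adjusted p = 0.401) did not pass at 60 min. KGD1 and SDH1 had 2 values each at 60 min and were not tested. With genes of 2 values admitted, KGD1 was at -0.0395 (interval -0.79 to 0.71) and SDH1 at -0.38 (interval -1.12 to 0.36), with adjusted p of 0.951 and 0.465 in limma. With 1 replicate left out the mean of FUM1 ran from 0.118 to 0.608 (0.608 without replicate 3) and that of LSC2 from 0.113 to 1.05, with no call.

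The 6 genes that passed at 60 min were those above 0 on all 3 arrays, a property of 26.8% of all genes tested, while 32.6% were below 0 on all 3. Without replicate 3 the mean of IDH1 was 3.05 and without replicate 2 it was 2.02. IDH1, IDH2, KGD2 and MDH1 passed without any 1 of the replicate numbers. The call of LSC1 ended without replicate 1 (1.11, adjusted p = 0.0515) or replicate 2 (1.14, adjusted p = 0.0552), and that of SDH2 ended without replicate 2 (1.39, adjusted p = 0.0550).

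**Figure D2:**
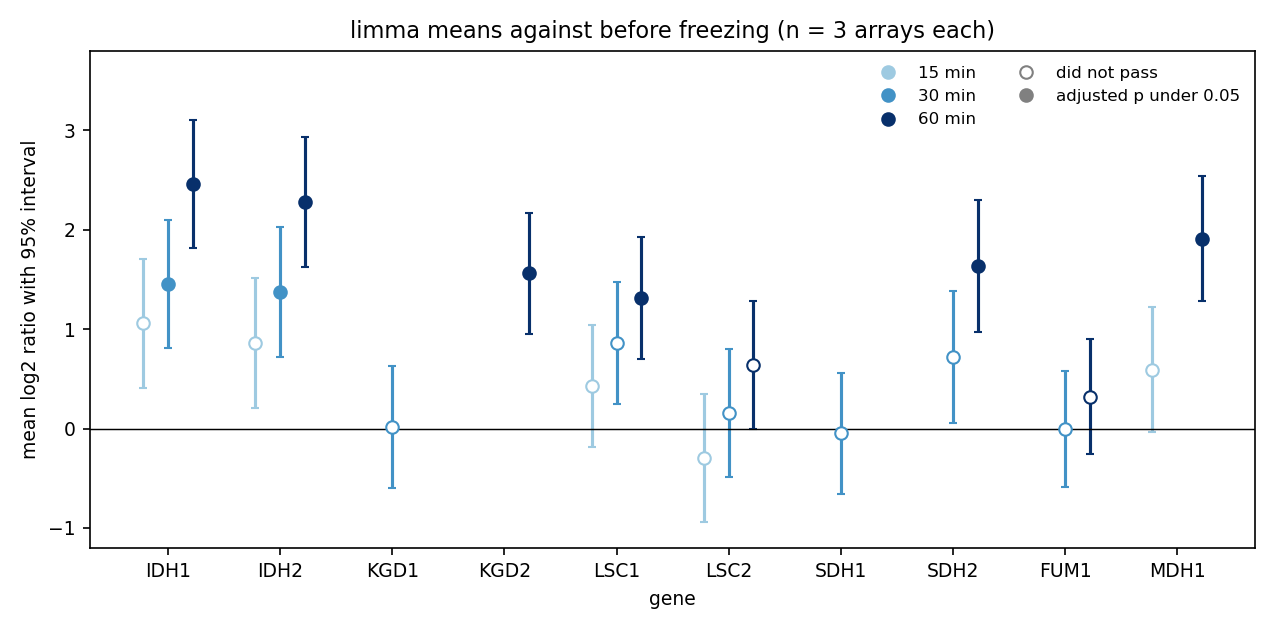
Points are limma means of the log2 ratio against before freezing for each gene and time point with 3 values. Bars are 95% intervals, which pool the spread of the 3 time points. Filled points passed at an adjusted p under 0.05: IDH1 and IDH2 at 30 min, and IDH1, IDH2, KGD2, LSC1, SDH2 and MDH1 at 60 min.

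At 30 min 8 genes could be tested and 2 passed, both higher. Of all 3320 genes tested 2.29% were higher and 2.05% lower, or 4.34% in either direction. IDH1 was 2.74-fold higher (1.45 ± 0.32, n = 3, adjusted p = 0.00537) and IDH2 2.58-fold higher (1.37 ± 0.32, n = 3, adjusted p = 0.0104). Both were above 0 on all 3 arrays, as were LSC1 (0.86 ± 0.30, adjusted p = 0.0901) and SDH2 (0.72 ± 0.32, adjusted p = 0.224), which did not pass. Of all genes tested 19.3% were above 0 and 25.5% below 0 on all 3 arrays. KGD1, LSC2, SDH1 and FUM1 had means from -0.0498 to 0.16. The call of IDH1 at 30 min ended without any 1 of the replicates (1.47, 1.31 and 1.58 without replicate 1, 2 or 3, adjusted p = 0.110, 0.137 and 0.0514). That of IDH2 ended without replicate 2 (1.11, adjusted p = 0.189) or 3 (1.36, adjusted p = 0.147).

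At 15 min 5 genes could be tested and 0 passed in limma, beside 0.838% of 2148 genes called higher and 0.326% called lower, or 1.16% in either direction. At an unadjusted p under 0.05 there were 2, IDH1 (1.06 ± 0.32, adjusted p = 0.0839) and IDH2 (0.86 ± 0.32, adjusted p = 0.159). Of all genes tested at 15 min, 17.5% had an unadjusted limma p under 0.05 in either direction. MDH1 was at 0.59 ± 0.31 and LSC1 at 0.43 ± 0.30. LSC2 was the only gene below 0 on all 3 arrays of a time point (-0.30 ± 0.31, interval -0.94 to 0.34), as were 20.8% of all genes tested at 15 min. IDH1, IDH2 and MDH1 were above 0 on all 3 arrays, as were 15.1% of all genes.

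The time points were also compared with each other, which asks whether the ratios differed during recovery. None of the 10 genes passed in any of the 3 comparisons in this fit, which takes no account of replicate number. Results with a term for replicate number (replicate block) are given with the processing alternatives at the end. Between 60 and 15 min all 5 genes tested had the higher mean at 60 min and an unadjusted limma p under 0.05, with differences from 0.89 (LSC1) to 1.42 (IDH2). Of all genes tested there, 53.1% had the higher mean at 60 min. An unadjusted limma p under 0.05, in either direction, was found for 24.6% of them. The difference was 1.40 ± 0.45 for IDH1 and 1.42 ± 0.45 for IDH2 (both adjusted p = 0.0562), and 1.31 ± 0.43 for MDH1 (adjusted p = 0.0678). In that comparison 2.41% of 1871 genes were called higher and 3.37% lower, or 5.77% in either direction. Between 60 and 30 min the limma count was 0 of 6, beside 0.0407% of 2457 genes called in either direction. IDH1 alone of the 6 reached an unadjusted limma p under 0.05 (1.01 ± 0.45, adjusted p = 0.421), as did 10.9% of all genes tested. Between 30 and 15 min 0 of 4 passed and 0 had an unadjusted p under 0.05, with differences from 0.40 to 0.51 and 0 of 1853 genes called. Of those 1853 genes 2.81% had an unadjusted limma p under 0.05.

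Ratios of IDH1 and IDH2 were set against those of the 8 later genes on the same array. These 16 pairs were chosen knowing that IDH1 or IDH2 was highest on all arrays, so the differences are a description without a test. IDH1 was above the later gene on every shared array in all 8 pairs. The mean difference was 1.84 ± 1.10 (SD, n = 6 arrays) against KGD1, 1.73 ± 1.23 (n = 6) against SDH1, 1.58 ± 0.73 (n = 8) against FUM1 and 1.49 ± 0.85 (n = 9) against LSC2. IDH1 exceeded LSC1 by 0.79 ± 0.40 (n = 9), KGD2 by 0.77 ± 0.35 (n = 7), SDH2 by 0.69 ± 0.35 (n = 8) and MDH1 by 0.54 ± 0.33 (n = 8). IDH2 exceeded the last 4 genes by 0.63, 0.61, 0.58 and 0.44, each on 7 arrays (7 of 9 for LSC1, 7 of 7 for KGD2, 7 of 8 for SDH2 and MDH1).

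The subunits of 1 enzyme were also set against each other within each array, as a description without a test. IDH1 minus IDH2 ran from -0.19 to 0.60 over 9 arrays with a median of 0.10, above 0 on 5 and below 0 on 4. No array separated them by 1 or more. LSC1 minus LSC2 ran from -0.0601 to 1.84 (median 0.75), above 0 on 8 of 9 arrays, and it was widest on replicate 2 of 60 min and almost nil (0.0188) on replicate 1 of that time. SDH2 minus SDH1 ran from -0.10 to 2.77 (median 0.73), above 0 on 5 of 6 arrays. KGD1 minus KGD2 was -0.0561 at 15 min (replicate 3), 0.00311 and -1.60 at 30 min (replicates 1 and 3), and -1.69 and -2.25 at 60 min (replicates 1 and 2). The genes of isocitrate dehydrogenase thus stayed together, and those of the other 3 enzymes came apart on at least 1 array by over 1 log2 unit.

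**Figure D3:**
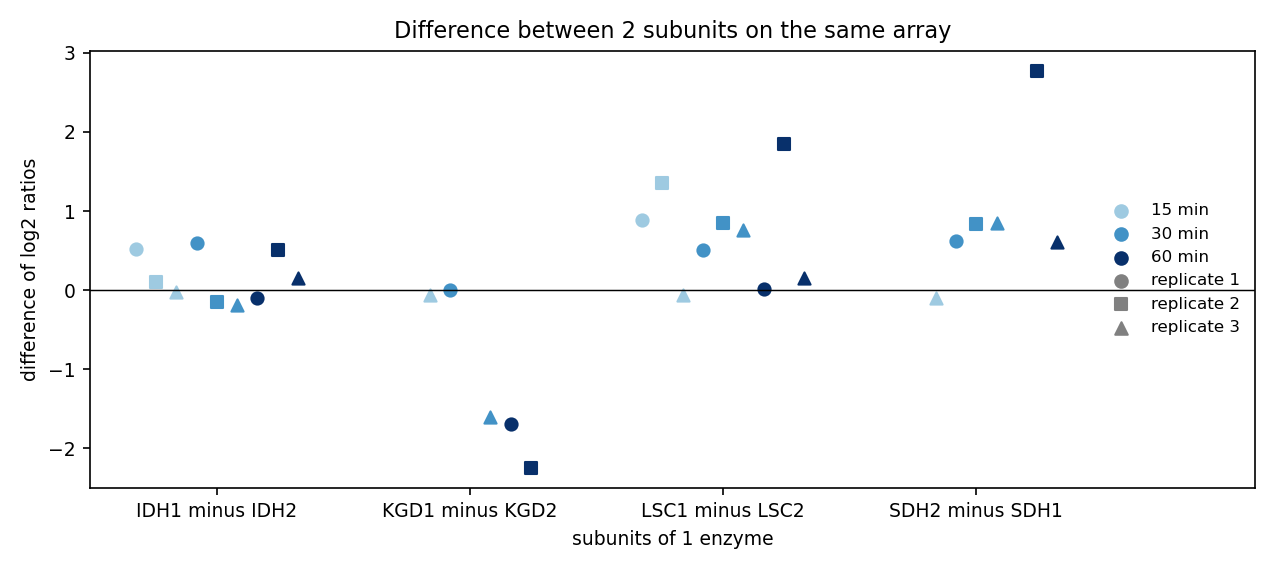
Each point is the difference of the log2 ratios of 2 subunits of the same enzyme on 1 array, coloured by time and marked by replicate. IDH1 minus IDH2 stays between -0.19 and 0.60, while KGD1 minus KGD2 reaches -2.25 and SDH2 minus SDH1 reaches 2.77.

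Across arrays, and as a description over points that share platforms and differ in spread, IDH1 correlated with IDH2 at 0.93 (Pearson, n = 9 arrays). It correlated with KGD2 at 0.95 (n = 7), MDH1 at 0.93 (n = 8), SDH2 at 0.92 (n = 8) and LSC1 at 0.90 (n = 9). For FUM1 the value was 0.58 (n = 8), for LSC2 0.40 (n = 9), for KGD1 -0.0511 (n = 6) and for SDH1 -0.60 (n = 6). The 5 highest correlations with IDH1 belonged to IDH2 and to the 4 later genes that rose at 60 min. The same 60 min values enter those calls and these correlations, so the correlations add no separate support.

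Arrays differed in how widely all their ratios were spread. The SD over all genes was 1.02, 0.992 and 0.683 on replicates 1, 2 and 3 at 60 min. The same replicates had an SD of 0.735, 0.625 and 0.567 at 30 min, while those of 15 min had 0.634, 0.798 and 0.444. Replicate 3 was the lowest array for 7 of the 8 complete genes at 60 min, 6 of 8 at 30 min and 3 of 5 at 15 min. Without it 6 genes passed at 60 min and 0 at 30 min. Within each array's own distribution IDH1 ranked between the 94.5th and 99.8th percentile on all 9 arrays. IDH2 ranked from the 82.6th to the 99.4th. On replicate 3 of 60 min, where IDH1 was only at 1.28, it was at the 97.9th percentile of that array. KGD1 ranged from the 7.83rd to the 81.7th percentile and SDH1 from the 15.0th to the 79.4th. The median percentile of those of the 10 genes with a value on an array lay between 73.1 (replicate 3 at 15 min) and 95.4 (replicate 1 at 60 min).

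**Figure D4:**
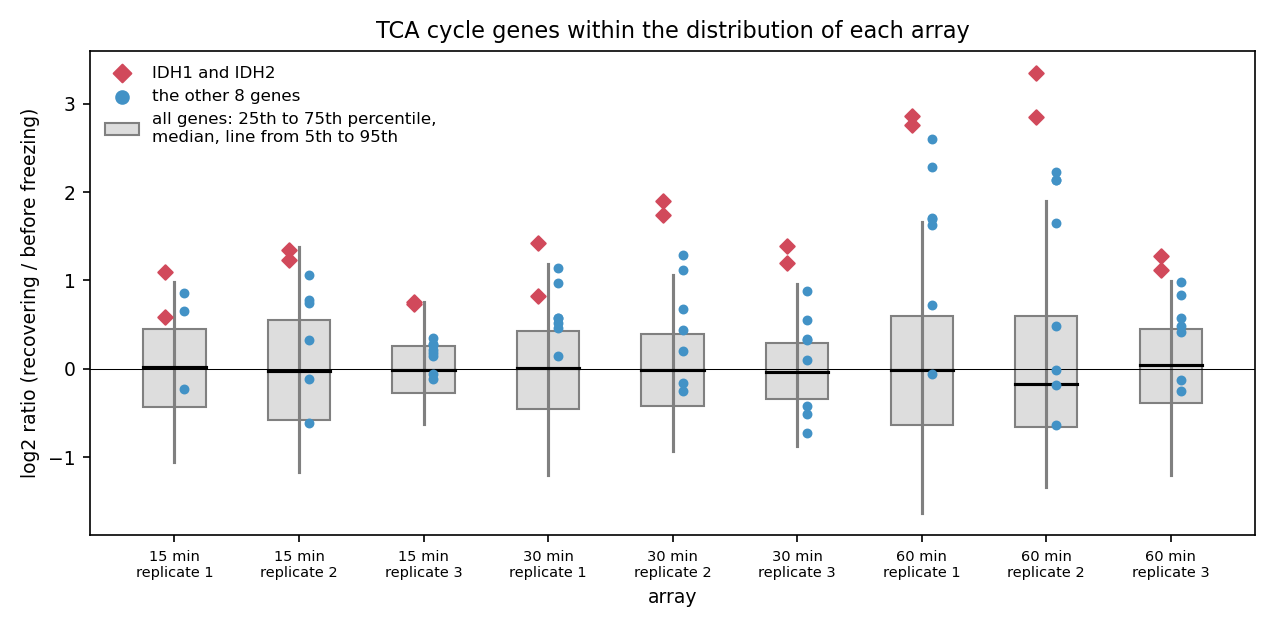
For each array, the box gives the 25th to 75th percentile of the log2 ratios of all genes, the bar their median and the line the 5th to 95th percentile, with IDH1 and IDH2 as diamonds and the other 8 genes as dots. IDH1 lies at or above the 94.5th percentile on each array, and the box of replicate 3 is the narrowest at each time point.

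Genes next to these enzymes were read from 14 lists of 96 genes, of which 89 were on both platforms. At 60 min 60 could be tested and 16 were higher and 5 lower, beside 15.6% and 17.5% of all genes. The median of the 60 was 0.0242, against 1.60 for the 8 TCA genes tested and -0.0563 for all genes. The 8 leave out KGD1 and SDH1, whose 2 values each at 60 min were below 0. Leaving out replicate 1, 2 or 3, 3 of the 21 calls (RIP1, COX5B and ATP15) passed each time, and the other 18 did not pass at least once. Each of the 21 kept its sign. Of the 7 other calls in the lists, at 15 and 30 min and between 60 and 15 min, only CYC7 at 30 min passed each time.

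Of the entry enzymes CIT1 and ACO1 were tested at 60 min and both rose, beside 15.6% of all genes called higher and 17.5% lower. CIT1, the mitochondrial citrate synthase, was at 2.78, 1.82 and 0.05 (mean 1.55, adjusted p = 0.00242), so replicate 3 showed almost no difference. ACO1, the aconitase, was at 1.44, 0.60 and 1.15 (mean 1.06, adjusted p = 0.00638). CIT2, the peroxisomal citrate synthase of the glyoxylate cycle list (3 tested, 0 higher, 1 lower), went the other way. It was at 0.12, 2.19 and 1.14 at 15 min and at -0.64, -1.46 and -1.84 at 60 min (mean -1.31, adjusted p = 0.00338), and its 60 min mean was below that of 15 min by 2.46 (adjusted p = 0.00418). That difference passed without replicate 1 (-3.31) but not without replicate 2 (-1.87, adjusted p = 0.236) or 3 (-2.20, adjusted p = 0.133), and the 60 min call did not pass without replicate 3 (-1.05, adjusted p = 0.123).

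Malate dehydrogenases of other compartments did not pass. MDH2, in the cytosol, was at 0.48 and MDH3, in peroxisomes, at 0.64 at 60 min (adjusted p = 0.227 and 0.0836), against 1.91 for MDH1. These differences between isozymes were not tested. Of 4 further succinate dehydrogenase genes tested, 2 were higher at 60 min, beside 15.6% of all genes tested. They were SDH8, an assembly factor (2.31, 2.22 and 0.50, mean 1.68, adjusted p = 0.000469), and SDH5, needed to attach the flavin to the SDH1 protein (1.52, 0.93 and 0.24, mean 0.90, adjusted p = 0.0234). The membrane anchor genes SDH3 and SDH4 were at 0.13 and 0.24 and did not pass. LPD1, the dehydrogenase component shared by the KGD and pyruvate complexes, was at 1.06, -0.24 and 0.34 at 60 min and did not pass.

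Around pyruvate, 1 of 5 genes tested was higher at 30 min, the pyruvate carboxylase PYC1 (1.23, 1.67 and 0.30, mean 1.07, adjusted p = 0.0432), which makes oxaloacetate. Of all genes tested at that time 2.29% were higher, and the call of PYC1 ended without any 1 of the replicates (0.99, 0.77 and 1.45 without replicate 1, 2 or 3, adjusted p = 0.278, 0.301 and 0.129). At 60 min PDX1, a component of the pyruvate dehydrogenase complex, was 1 of 4 tested and lower (-0.96, -0.70 and -1.21, mean -0.96, adjusted p = 0.00989). Of 8 mitochondrial carriers tested at 60 min 1 was higher and 2 lower, beside 15.6% and 17.5% of all genes tested. ODC1, which carries 2-oxoglutarate, rose (1.65, 1.29 and 0.37, mean 1.10, adjusted p = 0.00668). OAC1, an oxaloacetate carrier, was at -0.77 and MPC3, a pyruvate carrier subunit, at -0.92 (adjusted p = 0.0331 and 0.0190). GLN1, glutamine synthetase, was the 1 of 3 nitrogen genes tested that was higher (mean 0.85, adjusted p = 0.0188). The calls of GLN1 and OAC1 ended without any 1 of the replicates.

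In the respiratory chain a part of the genes rose at 60 min, when 15.6% of all genes tested were higher and 17.5% lower. Of 8 cytochrome c oxidase genes tested, 4 were higher and 1 lower. COX5B, an isoform of subunit V known for expression at low oxygen, was at 2.98, 3.44 and 1.54 (mean 2.65, adjusted p = 8.20e-07), while its counterpart COX5A was at -0.0544 and did not pass. COX12 was at 1.26, COX4 at 1.19 and COX6 at 0.84, and COX8 fell by 0.79. Of 9 genes of the ubiquinol-cytochrome c reductase and cytochrome c list 3 were higher, with the iron-sulfur protein RIP1 at 1.47, CYT1 at 1.05 and QCR2 at 0.85. CYT1 was at 1.73, 1.51 and -0.09 on the 3 arrays, so replicate 3 showed no rise. The calls of COX6, COX8 and QCR2 ended without any 1 of the replicates. Of 10 ATP synthase genes 3 were higher, with ATP14 at 1.66, ATP15 at 1.20 and ATP7 at 0.93. CYC7, an isoform of cytochrome c, was higher at 15 min (1.64, adjusted p = 0.0107) and 30 min (2.12, adjusted p = 0.000319) and had 2 values at 60 min. It was 1 of 6 genes of its list tested at 15 min and 1 of 8 at 30 min, beside 0.838% and 2.29% of all genes called higher. Its 15 min call ended without replicate 2 (1.84, adjusted p = 0.257) or 3 (1.46, adjusted p = 0.211). Among the remaining lists 0 genes passed in limma at 60 min and 0 had an unadjusted p under 0.05, beside 43.7% of all genes tested. These lists were the NADP-dependent isocitrate dehydrogenases (1 tested), the fumarate reductases and malic enzyme (2 tested), and the NADH dehydrogenases and electron donors (2 tested).

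The regulators list (10 genes) had 0 genes passed in limma among 2, 6 and 3 tested at 15, 30 and 60 min, with 0, 0 and 1 at an unadjusted p under 0.05. Of all genes tested 17.5%, 18.3% and 43.7% had such a p at those times. The 1 was HAP3, at -0.52, -0.82 and -0.91 at 60 min (mean -0.75, adjusted p = 0.0510). Its mean at 30 min was 0.20 (adjusted p = 0.789). HAP4, the activating subunit of the Hap complex, was at -1.26, 0.25 and -0.74 at 15 min, below 0 on both arrays with a value at 30 min, and at -0.41 and -0.54 at 60 min (replicates 1 and 2). It was tested at 15 min only (mean -0.58, adjusted p = 0.322).

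**Figure D5:**
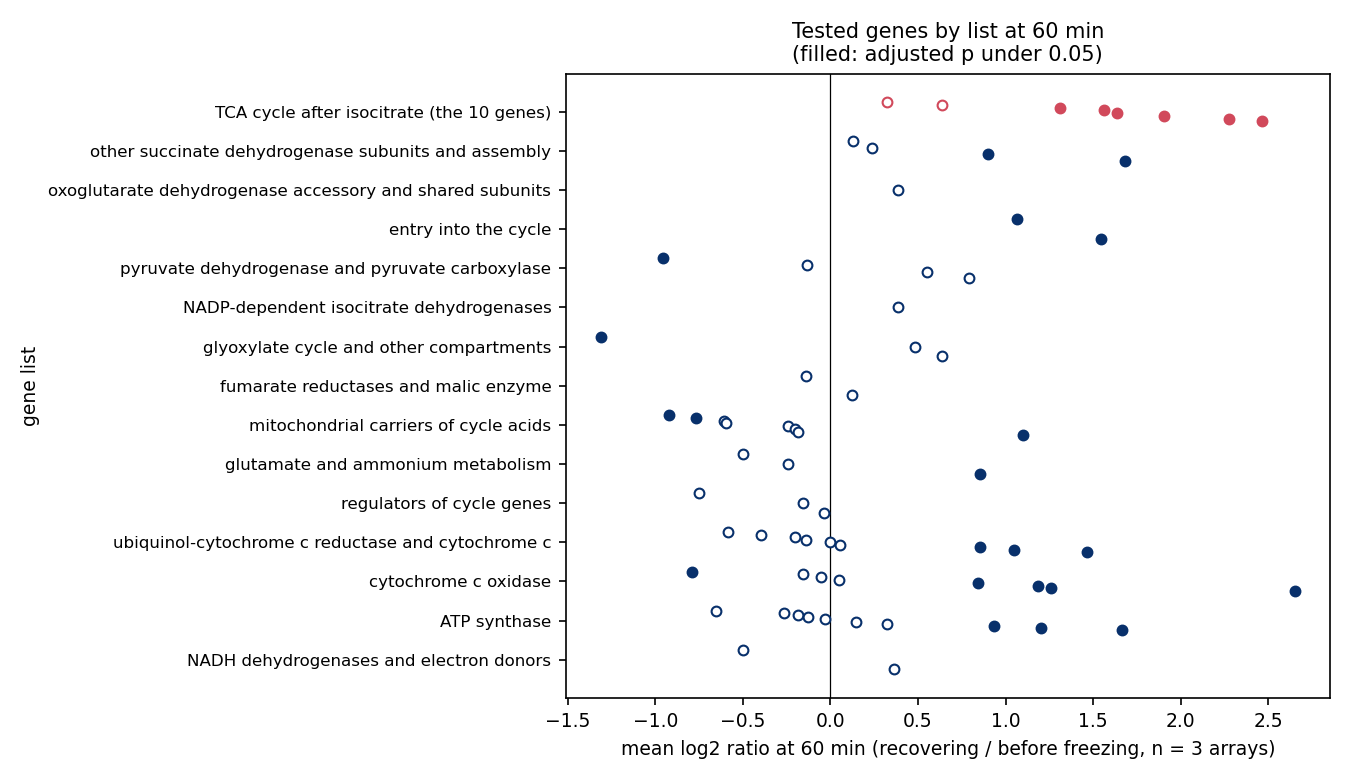
Each point is the mean log2 ratio at 60 min (n = 3 arrays) of a gene tested, in rows for the 10 TCA genes and the 14 neighbouring lists, filled where the adjusted p was under 0.05. The TCA genes tested have 6 filled and 2 open points, all above 0, while the carriers and cytochrome c oxidase have filled points on both sides of 0. KGD1 and SDH1 had 2 values each at 60 min, all below 0, and are not shown because they were not tested.

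The genes whose pattern was most like that of IDH1 were sought among the 1657 genes with a value on all 9 arrays, by Pearson correlation over the 9 arrays and as a description. Outside the 10 genes the 5 highest were ARI1 (YGL157W, 0.985), an aldehyde reductase, AFB1 (YLR040C, 0.984), SBA1 (YKL117W, 0.970), a co-chaperone of Hsp90, COX5B (YIL111W, 0.967) and VMA3 (YEL027W, 0.967), a subunit of the vacuolar ATPase. ARI1 was at 1.80, 2.20 and 0.56 on the 60 min arrays and SBA1 at 1.69, 2.35 and 0.49, so these genes were also lowest on replicate 3. Of the other 3 TCA genes with 9 values, IDH2 and LSC1 were among the 50 genes most like IDH1 and LSC2 was not. LSC2 had 0 of the 3 among its own 50.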

How the data were processed

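Per the labels, poly(A) RNA of recovering cells (Cy5) and of cells before freezing (Cy3) was hybridised to 2-colour arrays without dye exchange. The deposited values are log2 ratios that the authors normalized by LOWESS within each array on data with flag value 0, per the labels. The lowest deposited value is the log2 of 0.01, which set the base. The genome build is not given in the sources used, so no position is printed. Spots of 1 gene were averaged, and 5185 of 5189 genes matched RefSeq R64 names. All 9 arrays entered 1 fit (limma 3.58.1, R 4.3.3) that held a mean for each time but no platform or replicate term, and the procedure was tested on simulated data. Where a control culture was shared, the test against 0 leaves out its spread. The members, the lists and the pairs were chosen with earlier results of these data known. Members, list genes that passed and the 5 genes most correlated with IDH1 are named. Outside that rule, some list genes that did not pass are also named: SDH3, SDH4, LPD1, MDH2, MDH3, COX5A, HAP3 and HAP4. Most others that did not pass are not shown. Alternatives were other array scalings, weights, blocks, filters and left-out replicates.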

Additional observations from a re-analysis of the deposited data

How the results depend on the processing

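At 60 min 6 genes passed in all 10 alternatives that kept every array, and 5, 4 and 6 without replicate 1, 2 and 3. At 30 min, where 2 passed, 1, 0 and 0 passed without replicate 1, 2 and 3, with 4, 3 and 4 at an unadjusted p under 0.05. All genes called higher then numbered 30 of 3468, 16 of 4102 and 29 of 3629, against 76 of 3320 in the main fit. At 15 min, where 0 passed, 1 (IDH1) passed with arrays scaled to 1 median absolute deviation and 1 (IDH1) with quantile normalization. An exact sign-flip test over arrays passed 16 of 16 pairs of IDH1 or IDH2 with a later gene, and 0 without any 1 replicate number. That 0 was fixed in advance. At most 6 arrays then remain, where the smallest unadjusted sign-flip p is 0.03125, and after adjustment over the 16 pairs none could pass. The sign-flip test is not used as a result, since the pairs were chosen with results known and it takes arrays of the same number as independent. Flipped by replicate number, its smallest p would be 0.25. The cause of these changes was not tested, apart from the fewer arrays.

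The replicate block raised the count at 15 min to 2 (IDH1, adjusted p = 0.00925, and IDH2, 0.0432). It raised that at 60 against 15 min to 3 (IDH1, 0.00813, IDH2, 0.00928, and MDH1, 0.0116) and that at 30 min to 3 with LSC1. Calls over all genes rose too. Genes called higher went from 18 to 88 of 2148 at 15 min and from 76 to 184 of 3320 at 30 min. Between 60 and 15 min they went from 45 to 131 of 1871. LSC1 at 30 min also passed with scaling, with quantile normalization and with only the arrays compared in the fit. Deviations from the time means correlated at 0.022 to 0.526 for the 9 same-numbered pairs of arrays, 7 of them over 0.1, and at -0.607 to 0.296 for the 18 others. On average over the other times all 9 arrays correlated best with their own number, although replicate 1 of 15 min was closer to replicate 2 (0.0494) than to replicate 1 (0.0392) of 30 min. This is a hint from the data. The labelled volumes (400 ml frozen, taken in 100 ml portions) would allow 1 culture to serve all 3 times of a number, but the labels do not say so. The numbers were therefore not taken as pairs, and the main fit leaves out any pairing that exists. The platform block was added after seeing the data and changed no count.

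Signs turned only for means that had not passed. At 30 min FUM1 was at 0.00932 with centring, 0.00262 with scaling, 0.00653 with quantile normalization, 0.0532 with array weights and 0.0649 with the platform block, and -0.0779 to 0.121 with 1 replicate left out. KGD1 was at -0.0727 with scaling, -0.0416 with quantile normalization, -0.379 with weights and -0.261 to 0.389 with 1 replicate left out. LSC2 was at -0.156 with weights. SDH1 was at 0.0932 with the platform block and -0.336 to 0.182 with 1 replicate left out. LSC1 at 60 against 30 min, at 0.45, was at -0.0306 with quantile normalization. The share of all genes called higher at 60 min ran from 6.19% to 19.5% over the alternatives. Signal over background is not given, so weak spots could not be judged.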
